A study of Vitis vinifera with 6 samples.

Results

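Genes that were on in grape seeds and off in seed traces were chosen by their expression values. A gene was taken when it had at least 2 RPKM in each of 3 libraries from seeds and under 1 RPKM in each of 3 libraries from seed traces, with a seed mean at least 4 times the trace mean. RPKM scales the reads on a gene by the length of its model and the size of the library. The choice gave 30 genes of the 29325 that were readable and kept, or 0.102%. The fold requirement removed none of the genes that met the limits on single libraries. Because the values of all 6 libraries made the choice, the difference between the classes is described here and was not tested for these 30 genes.

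The plants came from a Red Globe by Crimson Seedless cross of table grapes and were F1 hybrids grafted on 1103 Paulsen rootstock in a single field. The seedless class consisted of the hybrids 669-60, 670-17 and 675-17, labelled sdi+, whose berries held traces. The seeded class consisted of the hybrids 665-17, 671-19 and 677-06, labelled sdi-, whose berries held seeds. Each hybrid gave 1 library, sampled 4 weeks after anthesis from berries of 10 to 12 mm, and each extraction pooled the seed content of 12 to 50 fruits. Phenotype, genotype and tissue mark the seeded samples as such although their titles say "Seededless", so every direction rests on those labels. Within a class, plant-to-plant differences and technical error are not separated.

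In stenospermocarpic grapes fertilisation takes place, but the young seed stops growing and a soft trace is left in a berry that keeps developing. A normal seed of that age holds a growing endosperm, a small embryo and a seed coat that hardens and fills with tannins. In bulk tissue, fewer cells of a type and less RNA per cell cannot be told apart, which applies to every gene at or near 0 in traces.

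The table does not pair its identifiers with names, and 0 of the identifiers matched the gene table used as reference. The 30 genes are therefore given by identifier, and no function is assigned to them. The tissue labels could not be checked against marker genes for the same reason. In an identifier, the digits before "s" give the chromosome, the next digits the scaffold and the last digits the order of genes along it.

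Read totals were derived from the step sizes among low RPKM values and came to 6576770 to 9267651 per library. At these totals 3 reads on a gene model of 1 kb stood for 0.324 to 0.456 RPKM. Whole reads and the gene-model length were recovered for all 30 genes. The lengths ran from 181 to 2282 bases with a median of 1124.5, against a median of 1420 bases over the 15210 genes with at least 2 RPKM in each seeded library. The 30 genes had between 15 and 526 reads over the 3 seeded libraries and between 0 and 28 over the 3 seedless ones. For 4 genes the seed value rested on fewer than 50 reads. Ratios of seeds to traces below are ratios of pooled reads per library total. Their 95% intervals are exact binomial ones and cover counting error only, not the spread between hybrids. The same reads made the choice, which can push the ratios up, and the intervals do not allow for it. Ratios, intervals and fold values against a floor therefore describe the 30 genes and are no support for the contrast.

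Few of the genes active in seeds were under the limit in every trace. Of the 15210 genes with at least 2 RPKM in each seeded library, 30 (0.197%) were under 1 RPKM in every seedless library, 46 were under it in 2 of the 3 and 266 in 1 of the 3. The opposite contrast, with at least 2 RPKM in each seedless and under 1 in each seeded library, held for 300 genes, or 1.02% of the table and 1.92% of the 15657 genes on in every trace. That difference between 30 and 300 genes was not tested, and it moved with scaling. Quantile normalization, which gives all libraries the same distribution, left 61 genes on in seeds and off in traces and 190 with the opposite contrast. Dividing by library medians gave 30 and 285. In 235 of the 300 genes with the opposite contrast, seedless replicate 1 was the highest library. Leaving out a library drops a condition from the choice. The opposite contrast then held for 327, 417 and 401 genes without seedless replicates 1, 2 and 3, and for 348 to 363 without a seeded library, while the genes on in seeds and off in traces numbered 40, 46 and 44 without seedless replicates 1, 2 and 3 and 34 to 44 without a seeded library.

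The 30 genes were of low to moderate level. Their seed means ran from 2.63 to 30.6 RPKM with a median of 5.22, and 28 of the 30 lay below the median seed mean of 17.3 RPKM over the 15210 genes on in seeds. The highest of them reached only the 68.4th percentile of those genes. A larger group of 132 genes on in seeds had a seed mean at least 4 times the trace mean and still exceeded 1 RPKM in at least 1 trace library. Their median seed mean was 18.3 RPKM and their highest 904 RPKM. The fixed limit of 1 RPKM in traces leaves out an abundant gene unless its contrast is far above 4-fold. The low level of the 30 thus follows in part from the choice itself. Among the 24 genes with a seed mean at least 16 times the trace mean, 17 belonged to the 30. In the plot of class means the 30 genes occupy the lower left corner.

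**Figure D1:**
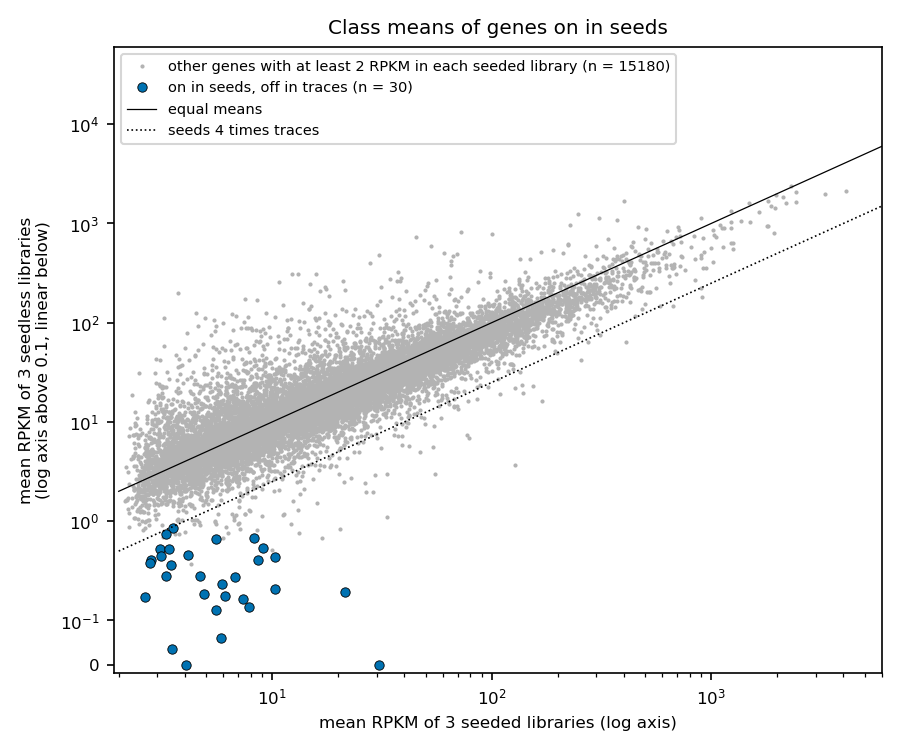
Mean RPKM in the 3 seedless libraries against mean RPKM in the 3 seeded libraries for every gene with at least 2 RPKM in each seeded library; blue points are the 30 genes on in seeds and off in traces, grey points the other 15180, and lines mark equal and 4-fold means. The blue points end at a seed mean of 30.6 RPKM, while the grey cloud continues to far higher seed means.

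The clearest contrast belonged to VIT_12s0028g00840, a short gene model of 348 bases on chromosome 12. It was listed at 0 in every seedless library and had 30.2, 22.6 and 39.1 RPKM in seeded replicates 1 to 3. Its seed mean of 30.6 ± 8.25 RPKM (SD, n = 3) was the highest of the 30 and rested on 257 reads. Set against a floor of 3 reads over the 3 seedless libraries together, it was at least 74-fold higher in seeds. VIT_03s0088g00060 on chromosome 3 came next, with 8.16, 30.7 and 25.6 RPKM in seeded replicates 1 to 3 and 0.143, 0.275 and 0.156 RPKM in seedless replicates 1 to 3. These values stand for 526 reads in seeds and 4 in traces, a ratio of 114 (95% interval 44.1 to 418). Seeded replicate 1 was well below the other seeded libraries in this gene, yet far above each trace.

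A further pair of genes averaged above 10 RPKM in seeds. VIT_18s0164g00010 on chromosome 18 had 7.64, 7.41 and 15.9 RPKM in seeds and 0, 0.4 and 0.227 RPKM in traces, in replicate order. Its ratio was 47.8 (95% interval 16.1 to 234) on 166 and 3 reads. VIT_02s0154g00150 on chromosome 2 had 12.3, 5.06 and 13.5 RPKM in seeds and 0.446, 0.714 and 0.162 RPKM in traces, a ratio of 22 (95% interval 11.4 to 48.7). The plot of all members by library shows the gap between the classes gene by gene.

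**Figure D2:**
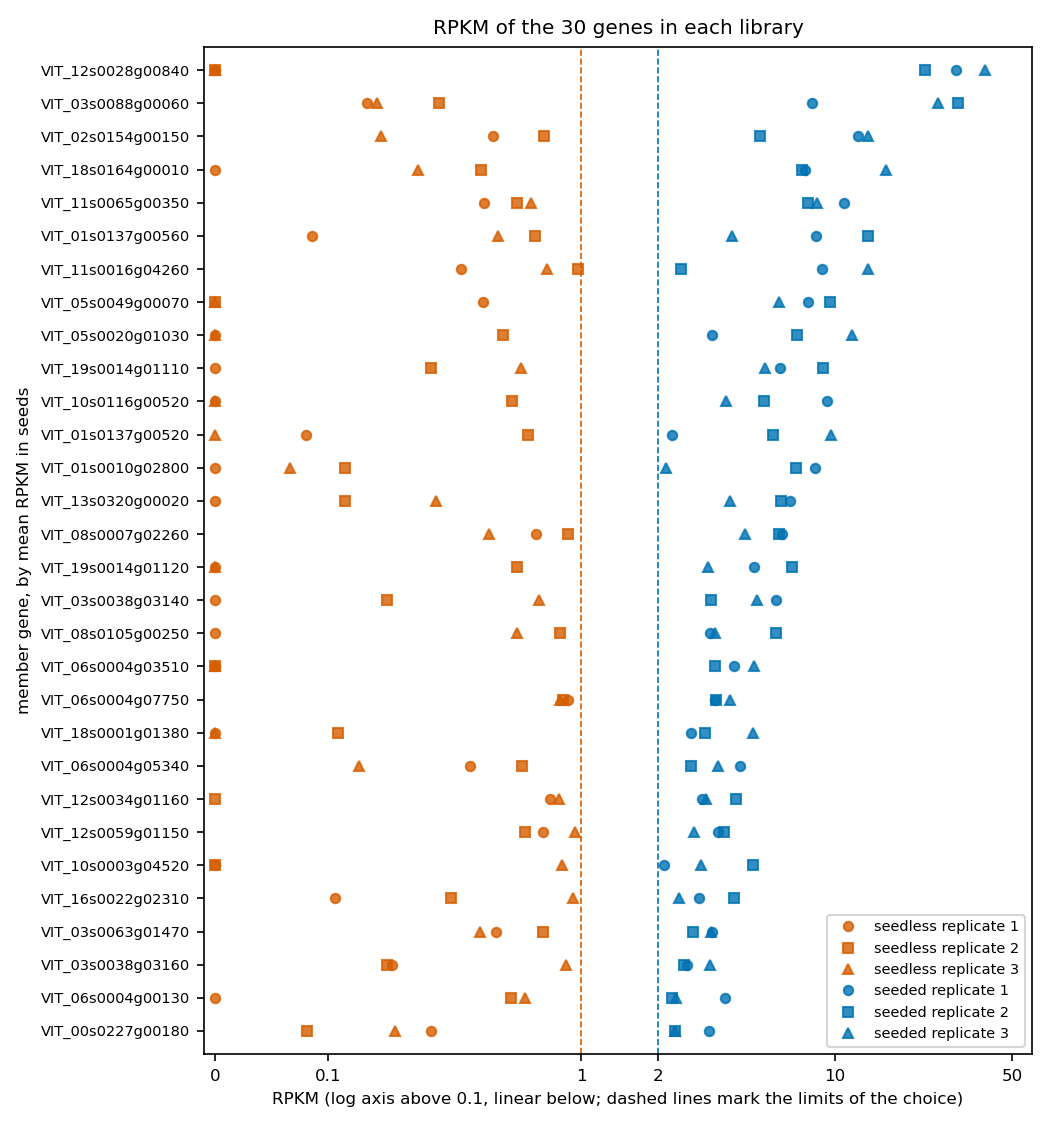
RPKM of each of the 30 genes in the 3 seedless (orange) and 3 seeded (blue) libraries, with genes ordered by seed mean and the limits of 1 and 2 RPKM as dashed lines; the axis is logarithmic above 0.1 and linear below. By the choice no orange point passes 1 RPKM and no blue point falls below 2 RPKM, and VIT_12s0028g00840 at the top has its seedless points at 0.

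Another 11 genes had seed means from 5 to 10 RPKM. VIT_11s0065g00350 had 10.9, 7.81 and 8.47 RPKM in seeds, a coefficient of variation of 18.2%, and 0.414, 0.556 and 0.631 RPKM in traces. It kept 19 reads in traces against 373 in seeds, so its low trace level was a measured one, with a ratio of 16.9 (95% interval 10.7 to 28.5). VIT_11s0016g04260, on the same chromosome, ran from 2.46 RPKM in seeded replicate 2 to 13.5 RPKM in seeded replicate 3, and had 0.335, 0.965 and 0.731 RPKM in traces. It was both the most variable of the 30 over seeds and among the 3 with the highest mean in traces, so its classes came close to each other in seeded replicate 2. VIT_08s0007g02260 had 6.17, 6.01 and 4.41 RPKM in seeds and 0.659, 0.885 and 0.431 RPKM in traces, a ratio of 8.35 (95% interval 4.9 to 15.3).

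In other genes of this range the traces held almost no reads. VIT_01s0010g02800, the longest gene model of the 30 at 2282 bases, had 8.36, 7.05 and 2.16 RPKM in seeds and 0, 0.117 and 0.0666 RPKM in traces. With 335 reads in seeds and 3 in traces its ratio was 96.4 (95% interval 32.7 to 470). VIT_05s0049g00070 had 7.84, 9.59 and 6.03 RPKM in seeds, and its 2 trace reads both lay in seedless replicate 1, the library with the fewest reads of the 30 genes in all. VIT_13s0320g00020 had 6.63, 6.15 and 3.86 RPKM in seeds and 0, 0.117 and 0.267 RPKM in traces, a ratio of 45.2 (95% interval 15.2 to 221). VIT_10s0116g00520 had 9.31, 5.27 and 3.72 RPKM in seeds, and its 4 trace reads all came from seedless replicate 2. With so few trace reads the size of each such ratio is not well fixed. The remaining 4 genes of this range, VIT_01s0137g00520, VIT_01s0137g00560, VIT_05s0020g01030 and VIT_19s0014g01110, lay in groups of neighbours and are described with them.

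The other 15 genes had seed means under 5 RPKM. VIT_06s0004g03510 on chromosome 6 was, beside VIT_12s0028g00840, the only other member listed at 0 in every trace. VIT_06s0004g03510 had 3.99, 3.36 and 4.8 RPKM in seeds, which on a gene model of 417 bases came to 41 reads, and it was at least 11.8-fold higher in seeds against the same floor of 3 reads over the 3 seedless libraries. VIT_18s0001g01380 had a single trace read, in seedless replicate 2, against 105 reads in seeds at 2.71, 3.07 and 4.77 RPKM. Its ratio of 90.6 (95% interval 15.9 to 3610) shows how little a single read fixes. At the other end, VIT_06s0004g07750 was the most even gene within both classes, with 0.881, 0.845 and 0.823 RPKM in traces and 3.35, 3.41 and 3.85 RPKM in seeds. It had the smallest ratio of the 30, 4.14 (95% interval 2.54 to 7.08). VIT_12s0059g01150 was similar, with 0.705, 0.601 and 0.939 RPKM in traces, 3.45, 3.64 and 2.77 RPKM in seeds, and a ratio of 4.47 (95% interval 2.97 to 6.96). Both of these were low in traces rather than absent, on 20 and 28 trace reads.

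VIT_10s0003g04520 was the member with the least evidence. It is a gene model of 181 bases, on which a single read in seedless replicate 3 gave 0.84 RPKM, and its seed values of 2.12, 4.77 and 2.95 RPKM came from 15 reads in all. Its ratio of 12.9 had a 95% interval of 1.99 to 545. VIT_03s0063g01470 had 3.28, 2.76 and 3.24 RPKM in seeds and 0.458, 0.703 and 0.399 RPKM in traces, with a ratio of 5.84 (95% interval 3.49 to 10.4), and was among the 3 least variable members over seeds. The remaining 9 of these 15 genes had ratios between 6.76 for VIT_12s0034g01160 and 25.6 for VIT_19s0014g01120. In order of falling seed mean they were VIT_19s0014g01120, VIT_03s0038g03140, VIT_08s0105g00250, VIT_06s0004g05340, VIT_12s0034g01160, VIT_16s0022g02310, VIT_03s0038g03160, VIT_06s0004g00130 and VIT_00s0227g00180. VIT_08s0105g00250 had 3.22, 5.88 and 3.35 RPKM in seeds and 0, 0.82 and 0.559 RPKM in traces. VIT_06s0004g05340 had 4.22, 2.71 and 3.47 RPKM in seeds and 0.363, 0.58 and 0.132 RPKM in traces. VIT_12s0034g01160 had 2.99, 4.07 and 3.11 RPKM in seeds, and in traces it was at 0 in seedless replicate 2 and at 0.751 and 0.819 RPKM in seedless replicates 1 and 3. No seedless library was thus the low one throughout. VIT_16s0022g02310 had 2.91, 4.01 and 2.43 RPKM in seeds and, in traces, 0.106, 0.305 and 0.923 RPKM. VIT_06s0004g00130 had 3.7, 2.27 and 2.36 RPKM in seeds and 0, 0.527 and 0.599 RPKM in traces. The last of the list, VIT_00s0227g00180 on no assigned chromosome, had the lowest seed mean, at 2.63 ± 0.48 RPKM (SD, n = 3) against 0.173 ± 0.0868 RPKM in traces.

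Off did not mean undetected for most of the 30. At 0 in every seedless library were 2 genes (6.67%). Any gene on in seeds and at 0 in every trace meets the rule, so the same 2 make up 0.0131% of all genes on in seeds. Of the genes with the opposite contrast, 46 (15.3%) were at 0 in every seeded library, and the difference was not tested. Among the 8930 genes under 1 RPKM in each trace, 61.6% were at 0 in every trace. Those genes were taken whatever their level in seeds, so they are no matched background for the 30. A further 6 of the 30 were at 0 in 2 seedless libraries, 9 in 1 and 13 in none. The 3 traces did not contribute alike. Seedless replicate 1 had 14 of the 30 at 0 and 53 of their reads, seedless replicate 2 had 5 at 0 and 110 reads, and seedless replicate 3 had 8 at 0 and 91 reads. The share of all genes listed at 0 was close to equal in the 3 libraries, at 23.6%, 24.9% and 24.7%. Other genes on in seeds were uneven too. Of those under 1 RPKM in a single trace, 202 were so in seedless replicate 1, 32 in seedless replicate 2 and 32 in seedless replicate 3. The highest trace value lay in seedless replicate 2 for 15 genes, in seedless replicate 3 for 10 and in seedless replicate 1 for 3. When seedless replicate 2 was left out of the choice, 9 genes of 46 were at 0 in both remaining traces, and without seeded replicate 1 there were 5 of 40 at 0 in every trace.

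Genes near the limits show how the group shades into others. Nearest inside were VIT_11s0016g04260, with a trace value of 0.965 RPKM, VIT_10s0003g04520, with a seed value of 2.12 RPKM, and VIT_12s0059g01150, with a trace value of 0.939 RPKM. Just outside was VIT_09s0002g07030, at 0.0938, 0.45 and 1.02 RPKM in traces and 2.15, 2.1 and 1.97 RPKM in seeds. VIT_01s0010g01080 was left out by a value of 1.06 RPKM in seedless replicate 2, with 4.18, 3.52 and 3.54 RPKM in seeds. VIT_07s0031g00930 was left out by 1.07 and 1.03 RPKM in seedless replicates 1 and 2, while seedless replicate 3 was at 0. Of the 30 genes, 20 reached at least 0.5 RPKM in some trace and 13 went under 3 RPKM in some seed library. An upper limit of 0.5 RPKM in traces would have kept 10 genes and a lower limit of 5 RPKM in seeds 7.

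Each library was also left out of the choice in turn and then read. Chosen on the other 5 libraries, 40 genes were under 1 RPKM in the traces of seedless replicates 2 and 3 and on in seeds, and 30 of them (75%) were under 1 RPKM in seedless replicate 1 as well. The same share was 63% of 46 genes for seedless replicate 2 and 68.2% of 44 genes for seedless replicate 3. Among all 29325 genes 34.6%, 36.7% and 36.1% were under 1 RPKM in these libraries, and among genes under 1 RPKM in the other 2 traces, whatever their level in seeds, 90.4%, 96.7% and 96%. For the seeded libraries, 75% of 40, 88.2% of 34 and 65.9% of 44 genes reached 2 RPKM in seeded replicates 1, 2 and 3. Over all genes with at least 2 RPKM in the other 2 seeded libraries that share was 97.5% to 98.4%. Most genes chosen on 5 libraries were thus on the same side in the sixth, but in a smaller share than among all genes that met the same limit in the other 2 libraries of the class. Those on the same side were in every case members of the 30. The shares therefore describe how many genes the sixth condition removes and are no separate support for the contrast. At least 2 RPKM in the left-out trace was seen in 5 or 6 of the genes each time, and under 1 RPKM in the left-out seeded library in 3 to 8.

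**Figure D3:**
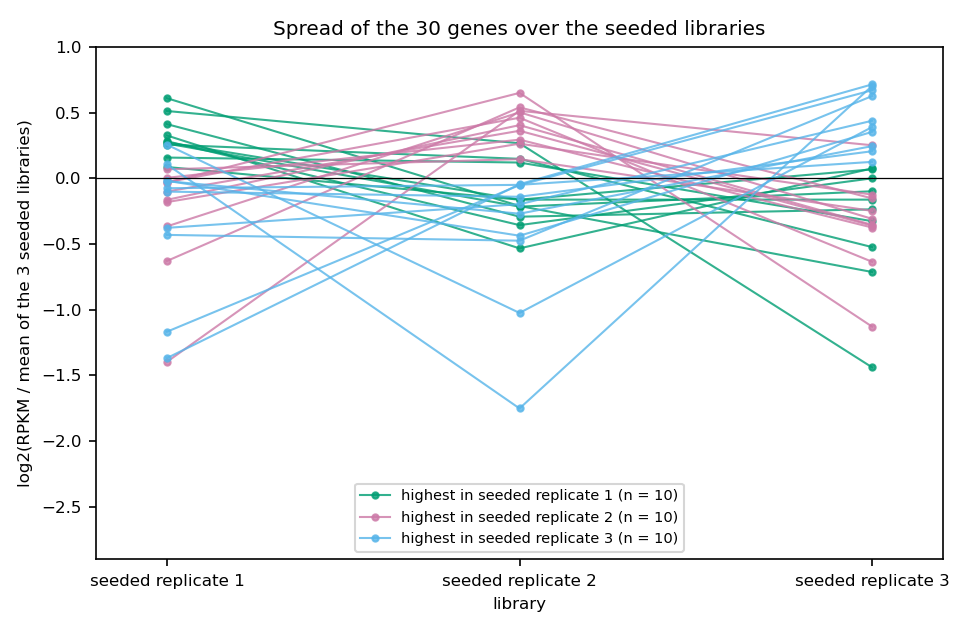
Level of each of the 30 genes in the 3 seeded libraries, as log2 of RPKM over the gene's mean in seeds, coloured by the library in which the gene was highest; lines join the values of a gene and do not imply an order of libraries. Each library was the highest for 10 genes, and the lowest point is VIT_11s0016g04260 in seeded replicate 2, at 2.46 RPKM against its seed mean of 8.29 RPKM.

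The 30 genes varied among the seeded libraries. Their coefficient of variation over the 3 seeded libraries had a median of 28.6% and ran from 7.78% to 66.7%, against a median of 14% for the 15210 genes on in seeds. The highest seeded library exceeded the lowest at least 2-fold in 11 of the 30 (36.7%), where 8.8% of the genes on in seeds did so. Among the 4886 genes on in seeds with means under 10 RPKM the median coefficient was 17.6% and 13.3% had a 2-fold range. In the 26 members under 10 RPKM the median was 27.6% and 8 (30.8%) had a 2-fold range. No library stood out, since seeded replicates 1, 2 and 3 were each the highest for 10 of the genes and the lowest for 8, 11 and 11. Over all genes on in seeds the highest library was seeded replicate 1 for 31.5%, seeded replicate 2 for 38.2% and seeded replicate 3 for 30.3%. The most variable were VIT_11s0016g04260, VIT_01s0137g00520 and VIT_05s0020g01030, with coefficients of 66.7%, 62.8% and 57.3%. In VIT_05s0020g01030 these values stand for 7, 18 and 24 reads in seeded replicates 1 to 3. Counting error is part of all these coefficients, and the comparison was matched on RPKM and not on reads. The most even were VIT_06s0004g07750, VIT_03s0063g01470 and VIT_03s0038g03160, at 7.78%, 9.29% and 13.6%. None of these differences was tested.

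The genes were spread over the genome. Of 30 genes, 29 lay on 13 of the 19 chromosomes and 1 on unplaced sequence. Chromosomes 3 and 6 held 4 each, chromosomes 1 and 12 held 3 each, 6 chromosomes held 2 and 3 held 1. Chromosomes 4, 7, 9, 14, 15 and 17 held none. The density over the table was 1.02 per 1000 genes. On chromosome 3 it was 3.16 per 1000 genes (95% interval 0.862 to 8.07) and on chromosome 6 it was 2.92 (95% interval 0.795 to 7.45), and both intervals include the overall density. Chromosome 14, the one with most genes among those without a member, had 0 of 1817, which allows up to 2.03 per 1000 (exact binomial interval). These intervals treat genes as independent. The 300 genes with the opposite contrast, at 10.2 per 1000 genes, lay on all 19 chromosomes. The sets differ in size, so their numbers of chromosomes cannot be compared directly.

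**Figure D4:**
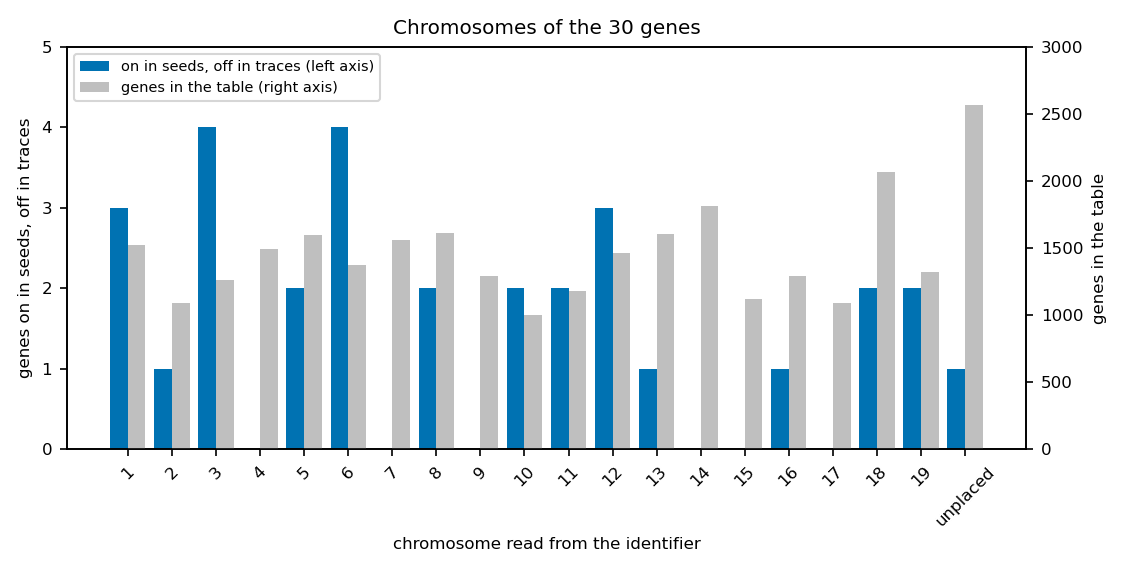
Number of the 30 genes on each chromosome (blue, left axis) and number of genes kept in the table (grey, right axis), with unplaced sequence last. Chromosomes 3 and 6 have 4 genes each and 6 chromosomes have none.

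The 30 genes sat on 24 of the 948 scaffolds of the table. The 4 members on chromosome 6 shared a scaffold but were at least 174 genes apart. Only 1 run of directly adjacent members occurred, a pair on chromosome 19. Thus 2 of the 30 (6.67%) had a member as the next gene, where 0.191% of other genes had a member beside them. With up to 1 other gene between, 4 of the 30 (13.3%) had a member near, against 0.372% of other genes. With up to 3 between there were 6 (20%), against 0.72% of other genes. With up to 5 between there were the same 6, against 1.05% of other genes. Of the 300 genes with the opposite contrast 33 (11%) were in 16 runs of at most 3 genes, where 1.86% of genes outside that larger group lay beside one of its genes. The plot of neighbouring genes shows these groups.

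**Figure D5:**
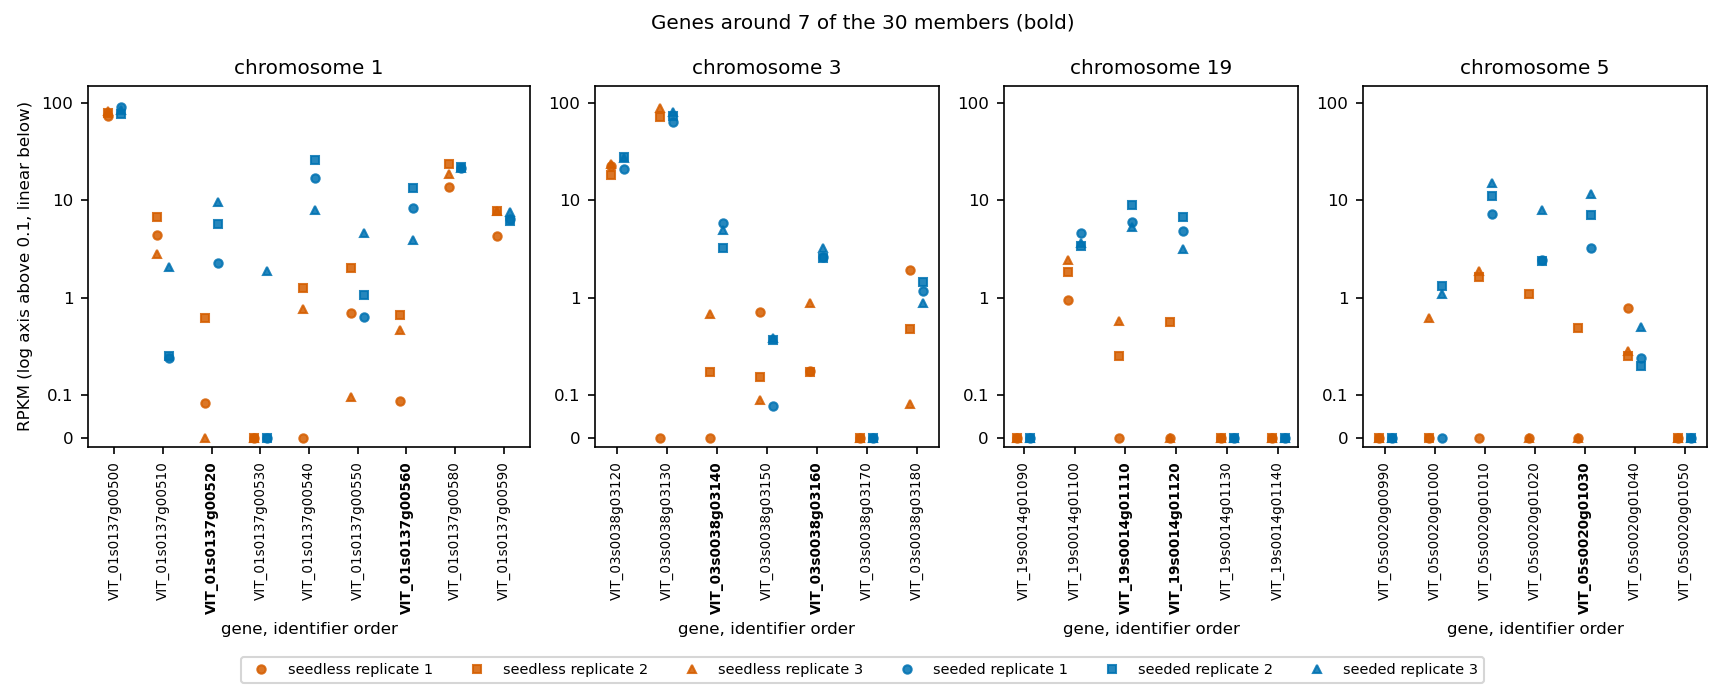
RPKM of consecutive genes in the 3 seedless (orange) and 3 seeded (blue) libraries in 4 stretches, with members in bold; the axis is logarithmic above 0.1 and linear below, and genes are in identifier order without regard to distance. Blue points lie above orange points at each bold gene, whereas VIT_01s0137g00510 on chromosome 1 has the reverse order.

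The adjacent pair on chromosome 19 was VIT_19s0014g01110 and VIT_19s0014g01120. The first had 6.06, 8.99 and 5.31 RPKM in seeds and 0, 0.254 and 0.576 RPKM in traces. The second had 4.81, 6.76 and 3.16 RPKM in seeds and 0, 0.559 and 0 RPKM in traces. Both thus ranked the seeded libraries in the same order, with seeded replicate 2 highest. The seed values stand for 25, 44 and 21 reads in the first gene and 27, 45 and 17 in the second. The order of seeded replicates 1 and 3 therefore rests on few reads. Both genes had 3 reads in traces. Their ratios were 25.9 (95% interval 8.58 to 128) and 25.6 (95% interval 8.48 to 127). The gene before them, VIT_19s0014g01100, was higher in each seeded library (3.43 to 4.66 RPKM) than in each trace (0.951 to 2.42 RPKM), with a log2 fold change of -0.88 in traces that did not pass (limma adjusted p = 0.0854). The 2 genes after them were at 0 in all 6 libraries.

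On chromosome 1, VIT_01s0137g00520 and VIT_01s0137g00560 lay with 3 listed genes between them. VIT_01s0137g00520 had 2.28, 5.71 and 9.67 RPKM in seeds and 0.0803, 0.616 and 0 RPKM in traces. VIT_01s0137g00560 had 8.41, 13.5 and 3.93 RPKM in seeds and 0.0857, 0.658 and 0.467 RPKM in traces. The seeded libraries thus stood in a different order in each, with seeded replicate 3 highest in the former and lowest in the latter. VIT_01s0137g00540, between them, had 16.9, 25.9 and 7.97 RPKM in seeds and 0, 1.26 and 0.757 RPKM in traces, and missed the choice by its value in seedless replicate 2 alone. Its split over the seeded libraries resembled that of VIT_01s0137g00560, with 51.1% and 52.1% of the seed sum in seeded replicate 2 and 15.7% and 15.2% in seeded replicate 3. VIT_01s0137g00550 had 73.1% of its seed sum in seeded replicate 3, next to 54.7% for VIT_01s0137g00520 and 80.7% for VIT_01s0137g00510. The last of these went the other way between the classes, at 4.41, 6.78 and 2.82 RPKM in traces and 0.238, 0.251 and 2.05 RPKM in seeds (log2 fold change 1.7, SE 0.45, limma adjusted p = 0.0569, not past the threshold). Apart from VIT_01s0137g00530, a model of 287 bases, the models from VIT_01s0137g00520 to VIT_01s0137g00560 were 1604 to 1808 bases long. If such neighbours are near-identical copies, reads could be divided between them, and the values are uncertain to that extent.

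On chromosome 3, VIT_03s0038g03140 and VIT_03s0038g03160 were separated by VIT_03s0038g03150. VIT_03s0038g03140 had 5.88, 3.24 and 4.94 RPKM in seeds and 0, 0.171 and 0.679 RPKM in traces, and VIT_03s0038g03160 had 2.61, 2.54 and 3.23 RPKM in seeds and 0.178, 0.171 and 0.872 RPKM in traces. In both, seedless replicate 3 was the highest trace. Their gene models measured 1567 and 1569 bases. The gene between them, of 1745 bases, was low in every library, at 0.0871 to 0.72 RPKM in traces and 0.0734 to 0.382 RPKM in seeds. VIT_03s0038g03130, on the outer side and 1734 bases long, was at 0 in seedless replicate 1 and at 71.4 and 88.6 RPKM in seedless replicates 2 and 3, beside 64, 74.3 and 80.6 RPKM in seeds. That gene lacked reads in a single trace, whereas both members were, by the choice itself, under 1 RPKM in all 3.

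On chromosome 5, VIT_05s0020g01030 had 3.27, 7.09 and 11.7 RPKM in seeds and a single trace read, 0.489 RPKM in seedless replicate 2. The genes before it were looked at after their values were seen. VIT_05s0020g01010 had 7.32, 11 and 15.2 RPKM in seeds and 0, 1.64 and 1.86 RPKM in traces, and VIT_05s0020g01020 had 2.46, 2.36 and 8.04 RPKM in seeds and 0, 1.1 and 0 RPKM in traces. In all 3 genes seeded replicate 3 was the highest library and seedless replicate 1 was at 0. The models are 245, 365 and 274 bases long, so that 3 trace reads were enough to exceed 1 RPKM in the first and the second.

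The genes beside the members were tested for a difference between the classes. They were picked by position, 1 on either side on the same scaffold, but a next gene that was itself a member was left out. This removed VIT_19s0014g01110 and VIT_19s0014g01120, each beside the other, through the values that made the choice, so the counts below are for non-member neighbours only. There were 56 such next genes, and 36 of them had at least 1 RPKM in at least 3 libraries. None of the 36 fell and none rose in traces (limma on log2(RPKM + 1), adjusted p under 0.05), where 5.10% of all 18749 genes tested fell and 7.18% rose. At an unadjusted p under 0.05 there were 11 of 36 (30.6%), 8 lower and 3 higher in traces, where 31.6% of all genes tested passed that limit. The median log2 fold change of the next genes was -0.35, against -0.04 over all genes tested. The nearest to the threshold was VIT_00s0227g00170, beside VIT_00s0227g00180, at 1.56 ± 0.241 RPKM in traces and 3.58 ± 0.508 RPKM in seeds (SD, n = 3 each), with a log2 fold change of -0.84 (SE 0.21, limma adjusted p = 0.0509). The next genes included 1 of the 132 with a seed mean at least 4 times the trace mean, VIT_05s0020g01020 (log2 fold change -1.88, SE 0.5, limma adjusted p = 0.0576). Under quantile normalization 2 of the 36 fell, without seedless replicate 1 there was 1 fall and 2 rises, and with 3 next genes on either side 4 of 105 fell and 6 rose.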

How the data were processed

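RNA from seed traces or seeds was sequenced with the TruSeq Stranded mRNA kit, per the labels' protocols. The authors deposited RPKM values, 1 column per library, with identifiers headed as the 12X V1 set per the file headers. Named in the submitters' processing notes are edgeR 2.2.6, HTSeq 0.5.4p5 and TopHat2 2.0.13. For their roles, the genome build, the strand setting and reads that match several genes, the entry is "not given in the sources used here". Such a value depends on library total and gene-model length, so a read weighs more on a short model.

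Of 29548 rows, 12 with a doubled decimal point were left out. A further 211 readable rows were set aside by identifier and entered neither the choice of genes nor its counts. Columns were assigned through the sample descriptions and classes through the phenotype. Reads were recovered by searching a gene-model length of 60 to 20000 bases and totals per library for which the 6 values became whole reads. A chance fit had to be under 0.01, which 23692 of 24536 genes above 0 met. Runs of members follow identifier order within a scaffold.

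The test on next genes used limma 3.58.1 in R 4.3.3 (lmFit, eBayes with trend) on log2(RPKM + 1), fitted to the 18749 genes that reached 1 RPKM in 3 or more libraries. These genes were 63.5% of the readable rows. The shares over all genes tested can therefore include rows set aside by identifier. P-values were two-sided, adjusted by Benjamini and Hochberg, and called under 0.05. The pseudocount understates changes of low genes. Other steps ran in Python 3.11.15 with scipy 1.17.1, pandas 2.3.3, matplotlib 3.10.9 and numpy 2.4.6. Members and gene groups were chosen with earlier results of these data known. The naming rule took the 10 highest members in seeds, up to 5 members at 0 in every trace, the longest runs, the 3 most and 3 least variable, the 3 nearest on each side of the limits and the 3 highest in traces, which gave 18 members. The others are given because all 30 are accounted for, and neighbours because of their position, some after their values were seen.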

Additional observations from a re-analysis of the deposited data

How the results depend on the processing

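The number of genes on in seeds and off in traces was set by the limits. It was 65 with a lower limit of 1 RPKM in seeds, 7 with 5 RPKM, 10 with an upper limit of 0.5 RPKM in traces and 61 under quantile normalization, and the cause of the last was not tested. It was 30 without the fold, 23 with a fold of at least 8 and 30 with median scaling. When a library was left out it was 34 to 46. Genes at 0 in every trace numbered 1 with a lower limit of 5 RPKM, and from 3 up to 5 with 1 seeded library omitted. With 1 seedless library omitted, from 3 up to 9 genes were at 0 in both remaining traces. The share of members with a member as the next gene was 0% with a lower limit of 5 RPKM or an upper limit of 0.5 RPKM, and from 4.55% up to 13% with 1 library omitted. Among next genes 2 fell under quantile normalization, 4 with 3 on either side, and from 0 up to 1 with 1 library omitted (that 1, and 2 rises, without seedless replicate 1). A pseudocount of 0.1 or 0.5, no filter and a filter of 5 RPKM each gave 0. With the replicate block 0 next genes fell. The labels name another hybrid for every replicate number, and the correlation across genes between same-numbered libraries, after the class means were taken off, was 0.07, 0.18 and 0.1, so the numbers were not taken to pair the libraries. At this depth, values under about 0.5 RPKM rest on few reads and were not resolved further.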

Other observations

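Genes on in every seeded library but under 1 RPKM in a single trace mostly had their low value in the same library. Of 266 such genes, 202 were under the limit in seedless replicate 1, 32 in seedless replicate 2 and 32 in seedless replicate 3. Among the 46 under the limit in 2 traces, 17 were so in seedless replicates 1 and 2, 18 in 1 and 3, and 11 in 2 and 3.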
